A study of Mus musculus with 2 samples.

Results

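The genes for mitochondrial ribosomal proteins were taken as all genes whose symbol begins with Mrpl or Mrps followed by a digit. There were 78 of them among the 22421 genes listed, 49 named Mrpl for the large subunit of the mitochondrial ribosome and 29 named Mrps for the small subunit. Each gene was read from the transcript with the highest value. Levels came from 2 RNA-seq libraries of CGR8 cells, a mouse embryonic stem cell line grown without feeder cells on gelatin in serum and LIF. The first library was made from cells transfected with siRNA against Set1a, the second from cells transfected with a negative control siRNA. Both carry a label of 72 hours, and the cells were given their siRNA 2 times within that period. The study asked what SET1A, a methyltransferase of histone H3 lysine 4 encoded by Setd1a, does to expression across the genome of these cells. Each group held 1 library, so no difference below has a replicate check, and none has a p-value.

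The mitochondrial ribosome translates the few mRNAs that are encoded in mitochondrial DNA, all for membrane subunits of the respiratory chain and the ATP synthase. Its RNAs are made inside the organelle, while every one of its proteins is encoded in the nucleus, translated in the cytosol and imported. A large share of these proteins descend from the bacterial ancestor of mitochondria, and others were added during the evolution of animal mitochondria and have no counterpart in bacterial ribosomes.

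Depth was recovered from the whole-read steps in the deposited RPKM values (reads scaled for transcript length and depth). It came to about 6390000 reads in the Set1a siRNA library and 6620000 in the control siRNA library. Setd1a was at 11.97 RPKM in the Set1a siRNA library, against 14.2 RPKM in the control siRNA library, a ratio of 0.846 with an exact 95% counting interval of 0.746 to 0.959. Such intervals cover the error of counting reads and not the difference between cultures. The lowering of the targeted mRNA was small, which bears on every comparison below. The 5 markers of embryonic stem cells (Pou5f1, Nanog, Sox2, Zfp42 and Esrrb) lay between 162 and 740 RPKM in the Set1a siRNA library, and between 164 and 745 RPKM in the control siRNA library. Summed over 5 markers each, fibroblast genes made 4.30 RPKM in the Set1a siRNA library and 2.49 in the control siRNA library, neural genes 36.2 and 32.6, primitive endoderm genes 1.60 and 1.254, and trophectoderm genes 4.604 and 3.31, in the same order. Among these markers Cdx2, Elf5, Col1a2 and Postn were listed at 0 in both libraries. The part of other cells in the results was not tested. In RNA from whole cultures, fewer cells of a type and less RNA per cell cannot be told apart.

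Promoter sequences of the members are shown first, since factors that bind the promoters of nuclear genes for mitochondrial proteins are well described. RefSeq windows of build GRCm38.p6, with 250 bases before and 50 after the start, were found for 69 of the 78 members. They were searched on both strands for the core bound by NRF1 (GCGC, any base, then TGCGC), for CCGGAAG, bound by ETS factors such as GABP, and for AAGATGGC, bound by YY1. The lines below come from the 4 members that were at least 25% higher in either library and held NRF1 or YY1 letters before their start, and from Mrpl12, a member of the factor-binding stalk. Capitals mark the motif in either orientation.

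Mrpl30, chr1:37890374-37890423, plus strand, NRF1: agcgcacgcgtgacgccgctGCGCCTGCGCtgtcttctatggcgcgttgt
Mrpl44, chr1:79775963-79776012, plus strand, NRF1: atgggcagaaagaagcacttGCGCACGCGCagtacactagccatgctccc
Mrpl12, chr11:120484536-120484585, plus strand, NRF1: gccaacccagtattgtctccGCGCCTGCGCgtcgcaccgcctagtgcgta
Mrpl36, chr13:73330959-73331006, plus strand, YY1: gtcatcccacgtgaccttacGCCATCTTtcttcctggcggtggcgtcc
Mrps11, chr7:78783004-78783051, plus strand, YY1: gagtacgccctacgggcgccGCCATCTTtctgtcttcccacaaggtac

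The YY1 letters were in 12 of the 69 windows (17.4%), against 5.16% of the 9310 windows of genes above a mean of 1 RPKM. The NRF1 letters were in 13 windows (18.8%), against 11.1%, and the ETS letters in 25 (36.2%), against 19.5%. Over all 27025 windows, expressed or not, these shares were 2.88% for YY1, 4.78% for NRF1 and 9.12% for ETS. At least 1 of the 3 was in 42 windows (60.9%), against 31.7% of genes above the floor. Of letters searched beside them, CCAAT was in 39.1% of member windows, 40.3% of windows above the floor and 37.9% of all 27025, and TATAAA in 5.797% of member windows, 6.93% of windows above the floor and 14.2% of all 27025. Overlapping matches of different motifs were each counted. Cytosolic ribosomal protein genes were taken by name alone, as the 99 genes whose symbol begins with Rpl or Rps and a digit. This rule can also take in genes with such a symbol that encode no ribosomal protein. Their 73 windows held the ETS letters at 32.9% and the NRF1 and YY1 letters at 6.85% each. A match describes the letters of a window and is no measured binding site.

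Members with and without each motif had close median folds between the libraries. The median log2 fold, Set1a siRNA over control siRNA on RPKM + 1, was -0.07 for the 13 members with NRF1 letters and -0.08 for members without. It was -0.04 with ETS letters and -0.09 without, and -0.08 with YY1 letters and -0.07 without. Of the 2 YY1 windows shown, Mrpl36 was lower and Mrps11 higher in the Set1a siRNA library, and of the NRF1 windows Mrpl30 was lower and Mrpl44 higher. Mrpl2, the member with the lowest fold, had none of the 3 motifs in its window.

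All 78 members were expressed, and all passed the floor of a mean of 1 RPKM that 11802 genes passed. Over the 78, the mean of both libraries had a median of 28.0 RPKM, against 8.87 RPKM for all genes above the floor. The middle 50% of members lay between 21.2 and 34.3 RPKM. The highest member stood 17.7-fold above the lowest, although the assembled ribosome holds nearly all of these proteins as single copies. Large-subunit genes had a median of 28.4 RPKM and small-subunit genes one of 26.9 RPKM, so the subunits were at similar mRNA levels. The 98 genes above the floor that are named as cytosolic ribosomal proteins had a median of 813 RPKM. They ranged from 1.81 to 2569 RPKM, and the name rule was not checked gene by gene.

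The 6 members at the top were all named for the large subunit. Mrpl42, a protein without a bacterial counterpart, was at 78.6 RPKM in the Set1a siRNA library and 88.9 RPKM in the control siRNA library. Mrpl2, the counterpart of the bacterial protein L2 beside the peptidyl transferase centre, was at 60.2 and 85.8 RPKM in the same order. Mrpl12, the counterpart of the bacterial stalk protein L7/L12, was at 69.7 RPKM in the Set1a siRNA library and 72.2 RPKM in the control siRNA library. Among genes above the floor these 3 had level percentiles of 94.6, 93.7 and 93.5. Mrpl24 followed at 61.7 RPKM in the Set1a siRNA library and 70.3 RPKM in the control siRNA library, Mrpl18 at 62.5 and 58.9 RPKM, and Mrpl52 at 52.2 and 55.8 RPKM, in that order. Mrpl18 was the only 1 of the 6 with a higher value in the Set1a siRNA library.

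The 6 lowest members belonged to both subunits. Mrps25, a small-subunit protein with no bacterial counterpart, was at 4.85 RPKM in the Set1a siRNA library and 4.63 RPKM in the control siRNA library. Mrpl19 was at 4.36 RPKM in the Set1a siRNA library, against 5.47 RPKM in the control siRNA library. Mrpl41 was at 6.04 and 6.01 RPKM, Mrpl35 at 7.88 and 8.54, Mrpl57 at 8.32 and 8.35, and Mrpl17 at 8.63 and 9.09, with the Set1a siRNA library named first in each pair. Several of these low members have long annotated transcripts, 7300 nucleotides for Mrpl17 and 6073 for Mrps25, against a median of 1224.5 for the 78. The part of the annotated length in these low values was not tested.

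The order of members was nearly the same in the 2 libraries, with Spearman's rho of 0.947 over the 78 genes, which share libraries and are no replicates. The members stayed close to equal values: 71 of 78 (91.0%) differed by less than 25% on RPKM + 1, against 81.5% of all genes above the floor and 86.5% of other genes within the members' range of levels. Those other genes lay lower within that range, at a median of 13.2 RPKM.

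**Figure D1:**
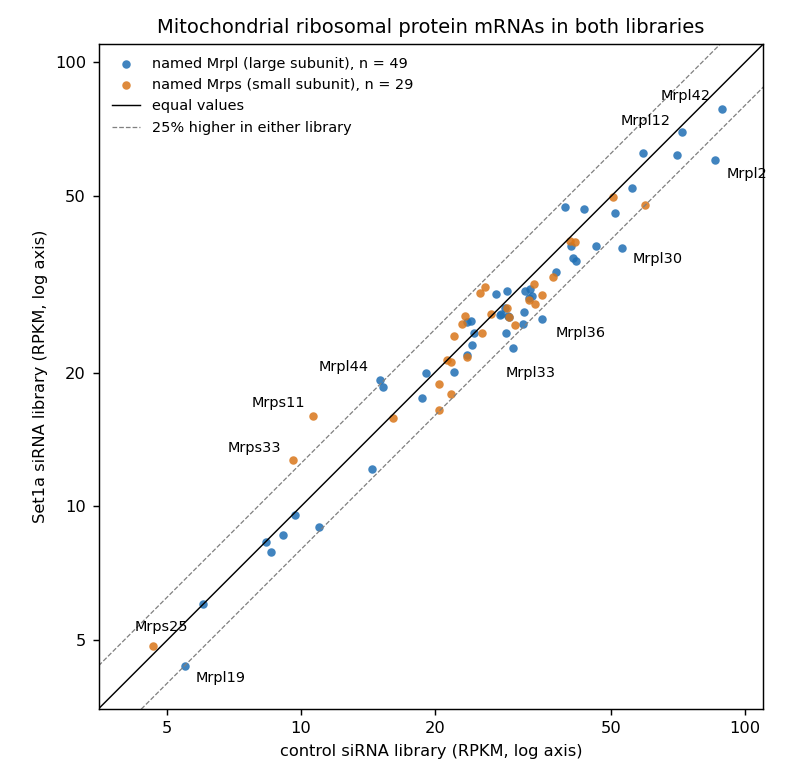
Each point is 1 of the 78 mitochondrial ribosomal protein genes, placed by its RPKM in the Set1a siRNA library (vertical, log axis) and the control siRNA library (horizontal, log axis), with large-subunit names in blue and small-subunit names in orange. The solid line marks equal values and the dashed lines a value 25% higher in either library, and most points sit slightly under the solid line, with Mrpl2, Mrpl30, Mrpl36 and Mrpl33 below the dashed lines, Mrpl19 at the lower one, and Mrps11, Mrps33 and Mrpl44 above them.

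Set against the control siRNA library, most members were slightly lower in the Set1a siRNA library. A lower value was found for 57 of the 78 (73.1%), where 48.8% of all genes above the floor were lower, and a higher value for 21 (26.9%), where 51.2% of all genes were higher. The median log2 fold was -0.07 for the members and 0.01 for all genes. The middle 50% of members lay between -0.18 and 0.01, and that of all genes between -0.14 and 0.16. Summed over members, the level was 2238 RPKM in the Set1a siRNA library and 2391 RPKM in the control siRNA library, a ratio of 0.936. The recovered reads, 15575 and 17169 in the same order, gave a depth-corrected ratio of 0.940 with a counting interval of 0.920 to 0.961. Among the 7410 other genes within the members' range of levels, 50.1% were lower and the median log2 fold was 0.00.

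Only a few single members stood out by size. By the rule of a value at least 25% higher in either library on RPKM + 1, 3 of 78 members (3.85%) were higher in the Set1a siRNA library, where 10.4% of all genes were. Lower by this rule were 4 members (5.13%), where 8.14% of all genes were. No member was 1.5-fold higher or lower on this scale, where 2.77% of all genes were that much higher and 1.75% that much lower. None reached 2-fold, which 0.771% of all genes passed upward and 0.407% downward. All genes include many at low levels. Among the 7410 other genes within the members' range of levels, 7.25% were higher and 6.23% lower by the 25% rule, so the members' share of lower genes was near theirs. By the 1.5-fold rule 1.66% of those genes were higher and 0.958% lower. They share the range but are not matched by level: their median was 13.2 RPKM, against 28.0 RPKM for the members.

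**Figure D2:**
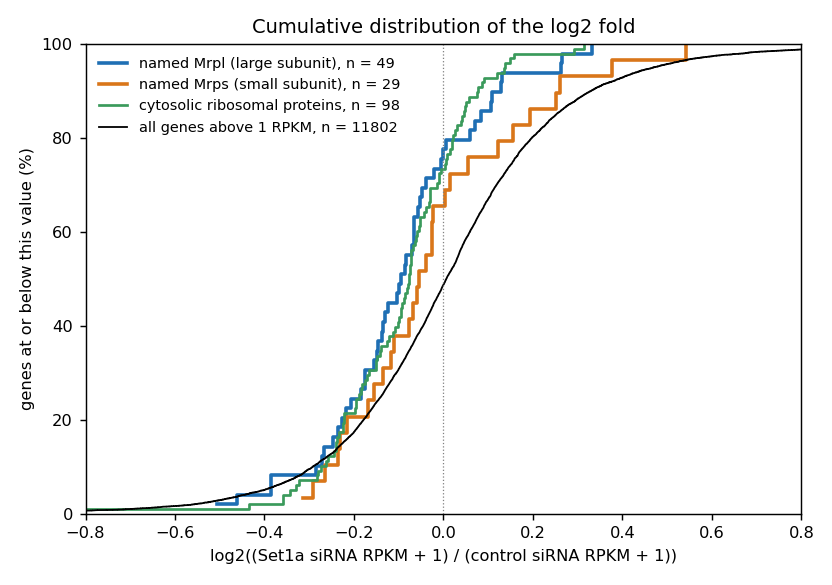
Cumulative share of genes (vertical, %) at or below each log2 fold of Set1a siRNA over control siRNA on RPKM + 1 (horizontal). Lines show 49 large-subunit genes, 29 small-subunit genes, 98 genes named as cytosolic ribosomal proteins and all 11802 genes above 1 RPKM. The blue, orange and green lines cross 0 at a higher share than the black line. Their right ends are shorter, but they hold far fewer genes, so the ends of the lines cannot be compared.

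The 4 members past the rule downward all belonged to the large subunit and have bacterial counterparts. That class holds 30 of the 78 members, and 13.3% of it was lower by the rule. It is singled out here because the 4 fell in it, so this share cannot be weighed against the 8.14% of all genes. Over all 78 members the share was 5.13%. Mrpl2 was at 60.2 RPKM in the Set1a siRNA library, against 85.8 RPKM in the control siRNA library. Its 391 reads in the Set1a siRNA library, against 578 in the control siRNA library, gave a ratio of 0.701 (0.615 to 0.799), and it was the only member whose whole interval lay below 0.8. Mrpl30, the counterpart of L30, was at 38.1 RPKM in the Set1a siRNA library, against 52.8 RPKM in the control siRNA library, a ratio of 0.721 (0.589 to 0.881). Mrpl30 has near-identical copies elsewhere in the genome annotation, and how reads that match several places were counted is not given in the sources used here.

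Mrpl36 and Mrpl33, counterparts of the small bacterial proteins L36 and L33, made up the rest of the 4. Mrpl36 was at 26.4 RPKM in the Set1a siRNA library and 34.8 RPKM in the control siRNA library, a ratio of 0.759 (0.612 to 0.939). An exon of Mrpl36 overlaps one of Ndufs6 on the opposite strand, and Ndufs6 itself, a subunit of respiratory complex I, was at 79.4 RPKM in the Set1a siRNA library and 83.1 RPKM in the control siRNA library. Mrpl33 was at 22.7 RPKM in the Set1a siRNA library and 29.98 RPKM in the control siRNA library, and its interval of 0.546 to 1.047 included 1. It rests on 68 and 93 reads and overlaps an exon of Gm43809 on its own strand.

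Other members were lower by less than the rule while their intervals stayed under 1. Mrps5, the counterpart of S5, a protein that in bacteria affects the accuracy of decoding, was at 47.7 RPKM in the Set1a siRNA library and 59.5 RPKM in the control siRNA library. Its ratio of 0.801 had an interval of 0.706 to 0.909. Mrps14 was at 16.5 RPKM in the Set1a siRNA library and 20.4 RPKM in the control siRNA library (ratio 0.808, 0.671 to 0.972). Mrpl9 was at 25.8 and 31.6 RPKM (0.815, 0.691 to 0.960), with the Set1a siRNA library first. Mrpl19 and Mrpl15 had intervals that ended at 0.999, and Mrpl15 is named after its value was seen. In all, 8 members (10.3%) had an interval wholly below 1, where 9.82% of all genes did, so these shares were close. The reads of 42 members are lower limits and their intervals wide, so the members' share may be understated. Mrpl11, which sits at the base of the stalk where translation factors bind, was at 8.97 RPKM in the Set1a siRNA library and 11.0 RPKM in the control siRNA library, with an interval of 0.661 to 1.004.

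Of the 3 members past the rule upward, 2 were from the small subunit. Mrps11, the counterpart of the platform protein S11, was at 15.98 RPKM in the Set1a siRNA library, against 10.7 RPKM in the control siRNA library. Its ratio of 1.499 (1.10 to 2.04) was the highest of the 78 and rests on 107 and 74 reads. Mrps33, a protein of the small-subunit head with no bacterial counterpart, was at 12.7 RPKM in the Set1a siRNA library and 9.58 RPKM in the control siRNA library, and its interval of 0.956 to 1.86 included 1. Mrps33 has near-identical copies in the annotation. Mrpl44, a large-subunit protein with an RNase III-like fold near the peptide exit, was at 19.2 RPKM in the Set1a siRNA library and 15.1 RPKM in the control siRNA library, a ratio of 1.28 (1.02 to 1.60).

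The other 5 of the 8 members with the highest folds were higher by less than the rule, and the intervals of 2 of them stayed above 1. Mrpl28 was at 47.2 RPKM in the Set1a siRNA library and 39.2 RPKM in the control siRNA library, a ratio of 1.20 (1.02 to 1.42). Mrps26, a small-subunit protein with no bacterial counterpart, was at 31.2 RPKM in the Set1a siRNA library and 25.9 RPKM in the control siRNA library (1.21, 1.04 to 1.40). The ratio was 1.21 for Mrpl46, 1.20 for Mrps12, the counterpart of S12 at the decoding centre, and 1.15 for Mrps35, and each of these 3 intervals included 1. Together 4 members (5.13%) had an interval wholly above 1, where 10.8% of all genes did, with the same limit from the members' reads.

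**Figure D3:**
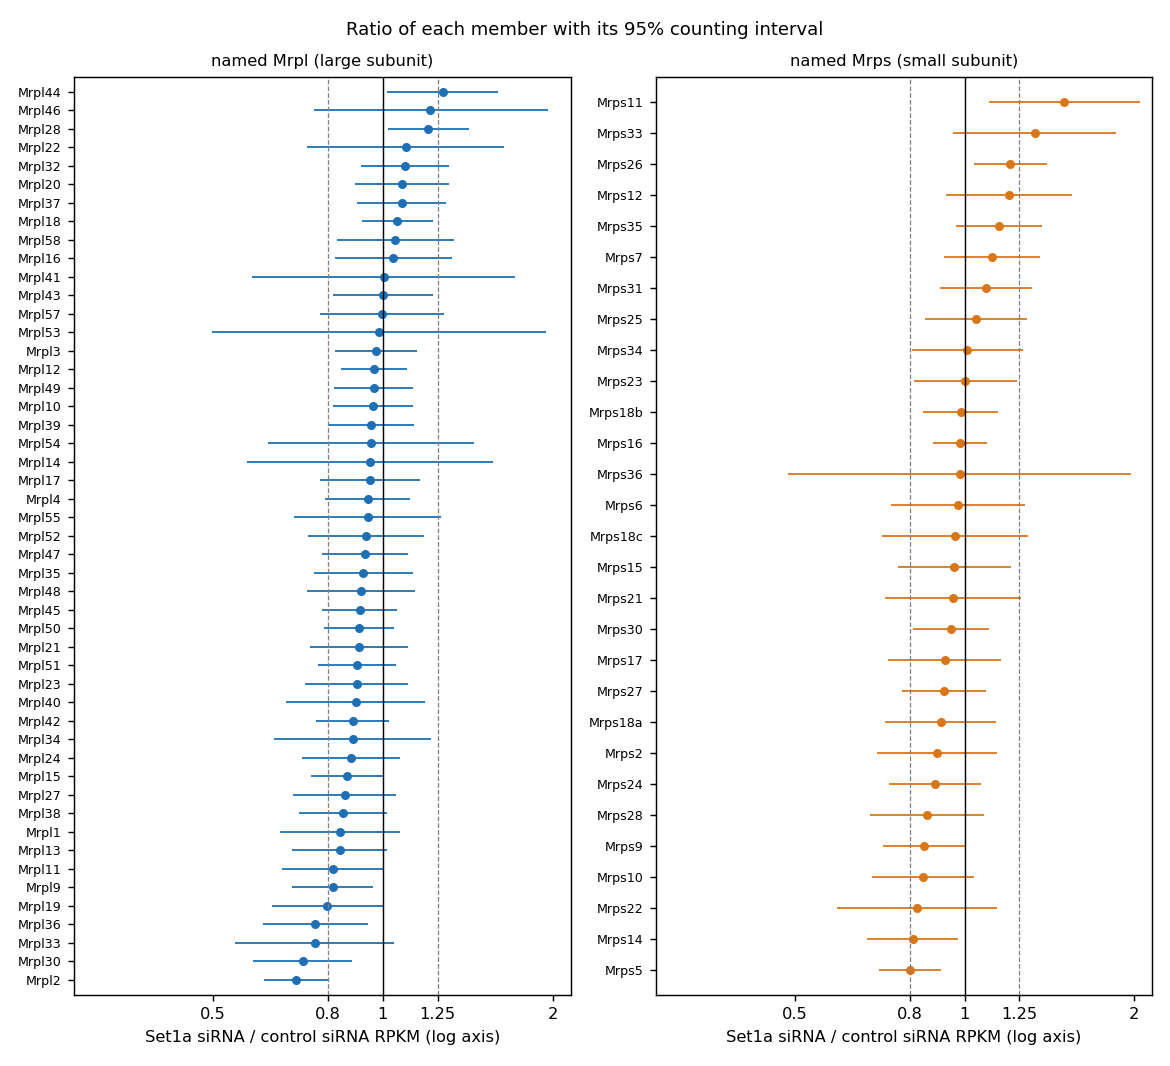
Ratio of RPKM, Set1a siRNA over control siRNA (horizontal, log axis), for each of the 49 large-subunit genes (left) and 29 small-subunit genes (right), sorted by ratio, with its exact 95% counting interval as a bar. Solid lines mark 1 and dashed lines a value 25% higher in either library. Most bars cross 1, and those of Mrpl2 and Mrps11 lie among the farthest from it.

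The subunits had similar medians. In the Set1a siRNA library 38 of the 49 large-subunit genes were lower and 11 higher, at a median log2 fold of -0.10. Of the 29 small-subunit genes 19 were lower and 10 higher, at a median of -0.05. The large-subunit sum was 1472 RPKM in the Set1a siRNA library and 1596 RPKM in the control siRNA library, and the ratio from reads was 0.923 (0.898 to 0.949). The small-subunit sum was 766 RPKM in the Set1a siRNA library and 795 RPKM in the control siRNA library, and the ratio from reads was 0.970 (0.936 to 1.005). These intervals overlap. The difference of the medians, large minus small, was -0.04, and it shrank to -0.01 among the 51 members without a near-identical copy in the annotation, a setting added after seeing the data. With a GC and length trend removed it grew to -0.07, and with means in place of medians also to -0.07, both planned settings. Large-subunit folds ranged between -0.51 and 0.33, and small-subunit folds between -0.31 and 0.54.

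The members were also divided by whether the bacterial ribosome has a counterpart. Of 48 members with one, 39 were lower and 9 higher in the Set1a siRNA library, and the median log2 fold was -0.11. Of 30 without one, 18 were lower and 12 higher, and the median was -0.02. The ratio from summed reads was 0.916 (0.891 to 0.941) with a counterpart and 0.986 (0.951 to 1.02) without, and these intervals do not overlap. Within the large subunit the classes were close. The median was -0.12 over 30 members with a counterpart, 24 of them lower, and -0.07 over 19 without, 14 of them lower, and the ratios from reads had overlapping intervals of 0.877 to 0.939 and 0.909 to 0.997. Among members named Mrps the median was -0.09 over 18 with a counterpart, 15 of them lower, and 0.01 over 11 without, 4 of them lower. These include Mrps18a, Mrps30 and Mrps36, which sit outside the small subunit, and the split was not redone by place. There the intervals, 0.889 to 0.972 with a counterpart and 0.986 to 1.11 without, did not overlap. All 8 members whose interval lay below 1 were among the 48 of 78 with a bacterial counterpart. Such intervals were found for 10.3% of all members and 9.82% of all genes above the floor. The intervals of sums again cover counting error only, and the difference between these classes was not tested.

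By place in the ribosome, all 5 members of the stalk and its base had a lower value with Set1a siRNA, by little. Their log2 folds lay between -0.27 for Mrpl11 and -0.02 for Mrpl53, with Mrpl12 at -0.05, Mrpl10 at -0.06 and Mrpl54 at -0.07. Each of their intervals included 1, and Mrpl53 rests on 19 reads with Set1a siRNA and 20 with control siRNA. For scale, the share with a lower value was 77.6% among members named Mrpl and 65.5% among those named Mrps. Among all genes above the floor it was 48.8%. Differences between places were not tested. Of 7 members of the central protuberance, 5 were lower and 2, Mrpl18 and Mrpl46, higher, with a median of -0.12. Of 8 members around the peptide exit, 6 were lower, and Mrpl44 and Mrpl22 were higher, with a median of -0.08. In the head of the small subunit Mrps14, Mrps9, Mrps10 and Mrps24 were lower and Mrps33, Mrps35, Mrps7 and Mrps31 higher, with a median of -0.02. In that list the members without a bacterial counterpart, Mrps31, Mrps33 and Mrps35, were all higher, and Mrps7 was the only higher member with one. The interval of each of these higher members included 1. Over all 11 members named Mrps without a counterpart, 7 were higher and 4 lower.

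Some members have names that differ from their place. Mrps18a, Mrps18b and Mrps18c are paralogs of the bacterial protein S18, of which Mrps18a sits in the large subunit. Mrps18b was the most abundant of them, at 49.7 RPKM in the Set1a siRNA library and 50.5 RPKM in the control siRNA library. Mrps18c was at 27.9 RPKM in the Set1a siRNA library and 29.0 RPKM in the control siRNA library, and Mrps18a at 26.7 and 29.4 RPKM in that order. Mrps30, likewise found in the large subunit, was at 31.7 RPKM in the Set1a siRNA library and 33.5 RPKM in the control siRNA library. Mrps36, now known as a part of the 2-oxoglutarate dehydrogenase complex, was at 15.8 RPKM in the Set1a siRNA library and 16.1 RPKM in the control siRNA library. Each of these 5 was slightly lower in the Set1a siRNA library, with an interval that included 1. Placing them by structure and adding proteins with other names gave a difference of medians of -0.06.

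The 7 mitoribosomal proteins on the list of other or older names, Mrpl57 and Mrpl58 among them, had a median log2 fold of 0.03, and none passed the 25% rule. Dap3, a GTP-binding protein of the small subunit, was at 17.7 RPKM in the Set1a siRNA library and 16.5 RPKM in the control siRNA library. Ptcd3 was at 24.8 and 24.2 RPKM, Aurkaip1 at 72.5 and 70.9, Gadd45gip1 at 23.4 and 23.2, and Chchd1 at 45.5 and 49.2, with the Set1a siRNA library first. Mrpl58, a peptide release factor built into the large subunit and formerly Ict1, was at 30.6 RPKM in the Set1a siRNA library and 29.1 RPKM in the control siRNA library. Of the 7 genes, Chchd1 and Mrpl57 were lower and the other 5 higher.

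Lists of other genes that serve mitochondrial translation had median log2 folds between -0.11 and 0.07. For its assembly and rRNA modification 26 genes were measured, 14 lower and 12 higher in the Set1a siRNA library, and their median was -0.02. Noa1, a GTPase needed for the small subunit, was at 11.0 RPKM in the Set1a siRNA library, against 7.44 RPKM in the control siRNA library (ratio 1.48, 1.16 to 1.90). Malsu1, which binds the large subunit during assembly, was at 8.73 and 6.13 RPKM in the same order (1.43, 0.931 to 2.20). Ngrn, a factor of large-subunit rRNA, was at 24.2 RPKM in the Set1a siRNA library and 33.0 RPKM in the control siRNA library (0.733, 0.610 to 0.879).

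Of 13 translation factors 9 were lower and 4 higher, at a median of -0.11. Mtif2, the initiation factor that brings the initiator tRNA, was at 12.4 RPKM in the Set1a siRNA library and 15.5 RPKM in the control siRNA library (0.799, 0.667 to 0.957). Mrrf, the ribosome recycling factor, was at 9.55 and 11.6 RPKM, and Taco1, an activator of cytochrome c oxidase subunit translation, at 5.01 and 6.18 RPKM, the Set1a siRNA library first. Their intervals included 1.

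Of 17 mitochondrial aminoacyl-tRNA synthetases 12 were lower and 5 higher, at a median of -0.09. By the 25% rule 2 were higher (11.8%), where 10.4% of all genes were, and 5 lower (29.4%), where 8.14% of all genes were. Ears2, for glutamate, was at 5.23 RPKM in the Set1a siRNA library and 9.03 RPKM in the control siRNA library (0.579, 0.417 to 0.797). Lars2, for leucine, ran the other way with 246 RPKM in the Set1a siRNA library and 111 RPKM in the control siRNA library, a level far above the rest of its list.

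Of 16 genes for mitochondrial DNA and RNA synthesis and stability, 10 were lower and 6 higher, with a median of -0.06. Tfb2m, the factor that opens mitochondrial promoters, was at 5.98 RPKM in the Set1a siRNA library and 9.08 RPKM in the control siRNA library (0.658, 0.503 to 0.858). Tefm, the elongation factor, was at 6.78 and 8.99 RPKM (0.754, 0.525 to 1.08), and Polrmt, the RNA polymerase of mitochondria, at 9.81 and 7.63 RPKM (1.29, 1.06 to 1.56), with the Set1a siRNA library first. The polymerase and its promoter factor differed in opposite directions.

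Regulators of mitochondrial gene expression and the import machinery were not lower as lists. The median was 0.07 over 10 regulators above the floor, of which 7 were higher and 3 lower in the Set1a siRNA library. Myc was at 11.8 RPKM in the Set1a siRNA library and 8.09 RPKM in the control siRNA library (1.46, 1.12 to 1.91). Gabpb2, a partner subunit of the ETS factor GABP, was at 13.8 and 16.4 RPKM (0.845, 0.741 to 0.963), and Pprc1, a PGC-1-related coactivator, at 27.5 and 31.0 RPKM (0.887, 0.812 to 0.969), in that order. Ppargc1a was listed at 0 in both libraries. Of 20 import genes 11 were higher and 9 lower, with a median of 0.04. Tomm7 was at 45.5 RPKM in the Set1a siRNA library and 59.5 RPKM in the control siRNA library (0.765, 0.661 to 0.885), Timm10 at 22.9 and 28.2 RPKM (0.813, 0.617 to 1.07), and Timm13 at 41.2 and 34.5 RPKM (1.20, 1.02 to 1.41), in the same order.

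**Figure D4:**
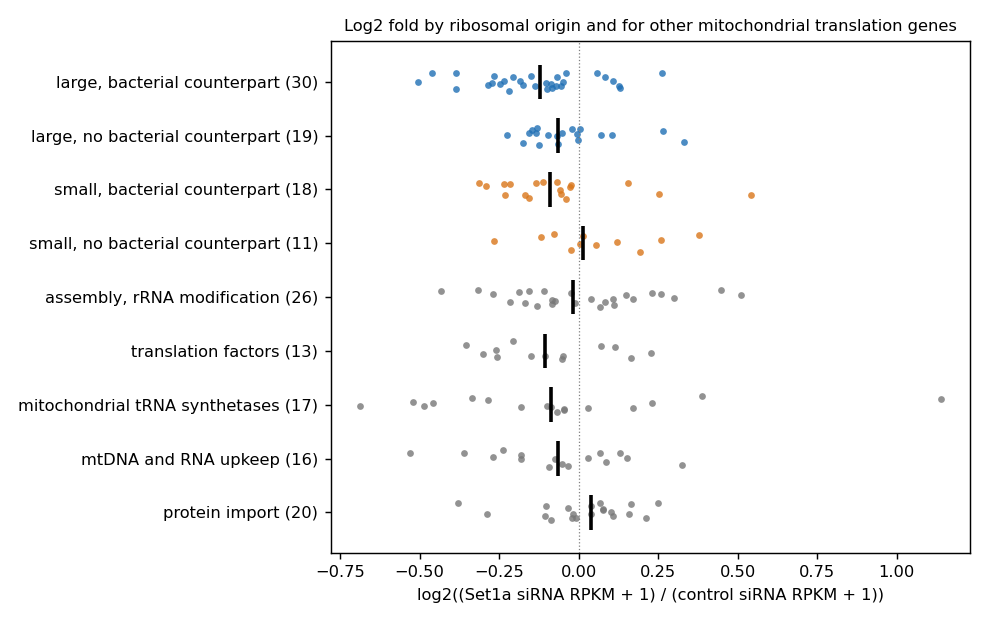
Log2 fold of Set1a siRNA over control siRNA on RPKM + 1 (horizontal) for each gene of the members by subunit and bacterial counterpart and of 5 other lists, with the number of genes in parentheses and the median as a black bar. Subunits are by name. Members with a bacterial counterpart have medians of -0.12 and -0.09, members named Mrps without one a median of 0.01, and the point at the far right is Lars2.

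Genes named as ribosomal proteins of the cytosol (Rpl or Rps and a digit) were lower by a similar amount. Their 98 genes above the floor held 72 that were lower in the Set1a siRNA library and 26 that were higher. Their median log2 fold was -0.08, beside -0.07 for the mitochondrial set, and the ratio from summed reads was 0.940 (0.937 to 0.944), beside 0.940 (0.920 to 0.961). The mitochondrial set did not stand apart from them by these values. Both sets have short transcripts, with medians of 1224.5 nucleotides for the mitochondrial and 838 nucleotides for the cytosolic set, against 2787 for all genes above the floor.

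Among the 78, the fold had Spearman's rho of -0.26 with the mean level, of 0.12 with GC content and of -0.01 with transcript length. Over all genes the same values were -0.08, 0.21 and 0.03. These correlations describe genes of the same 2 libraries.

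Counting limits some members more than others. Near-identical copies of at least 200 nucleotides were found in the annotation for 27 members. These copies take in genes that overlap the member itself, such as Gm42688 for Mrpl53, so not all are separate duplicates. Of the members, 26 had an exon that overlaps an exon of another gene, 22 of them on the opposite strand. Whether reads were counted by strand is not given in the sources used here, so reads of a member and such a neighbour cannot be told apart. Among the highest and lowest members this touches Mrpl12, with the copy Gm15770 and an exon of Gm16755 on the opposite strand. It also touches Mrpl18, with the copy Gm13675 and an exon of Tcp1 on the opposite strand. Mrpl42 has the copy Gm6419, and Mrpl41 the copy Gm6434. On the opposite strand, Mrpl24 overlaps an exon of Rrnad1 and Mrpl19 one of Gcfc2. The transcript of Mrps25 overlaps Nr2c2 and has the copy Gm42933. Mrpl2, Mrpl44 and Mrps11, among the 7 members past the 25% rule, had neither.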

How the data were processed

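RNA was measured in 2 libraries, 1 per group. The authors deposited 1 value per RefSeq transcript with no header; the unit RPKM was inferred from the deposited values, which move in whole-read steps. Per the submitters' processing notes the tools were TopHat2 2.0.12, TopHat, SAMtools 0.1.16 and CASAVA and the build mm9, with no role or order. How reads were counted, by strand or not and at several matches, is not given in the sources used here.

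Symbols came from RefSeq (GRCm38.p6), a few from GENCODE M21 (27957 of 28430 transcripts, 98.3%), lengths and GC content from GENCODE M21. As builds differ, only the RefSeq promoter windows carry coordinates. Each gene was represented by its transcript with the highest summed RPKM. For Mrpl48 this is a non-coding one. The fold was the log2 ratio of RPKM + 1, Set1a siRNA over control siRNA, a scale that shrinks differences of low genes. The floor was a mean of 1 RPKM. The ratio of depths, 0.965, came from 633 transcripts with small equal read numbers. Reads were the whole pair that gives the ratio of both values. For 42 members the annotated length gave no whole pair, and the smallest pair that leaves room for the coding sequence was used, so their reads are lower limits and their intervals wide. Ratios carry exact Clopper-Pearson 95% intervals, for counting error only.

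The members and gene lists were chosen with earlier results of these data known. Places in the ribosome and bacterial counterparts came from general knowledge. Named were Setd1a, the 6 highest and 6 lowest members, the 8 members with the highest fold and the 8 with the lowest (mean of 5 RPKM or more), any member past 1.5-fold, the Mrps18 paralogs, Mrpl12, members placed apart from their name, mitoribosomal proteins with other names, and the 3 largest folds of each other list (same minimum). A gene that this rule names is not reported here. Other names were chosen after their values were seen. Copies were found with BLAST 2.17.0 at 90% identity over at least 50% of the shorter transcript. Python 3.11.15, pandas 2.3.3, numpy 2.4.6, scipy 1.17.1 and matplotlib 3.10.9 were used, and the scripts were tested on simulated data.

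Alternatives tried were other pseudocounts, floors, scaling, transcript choices, fold rules, means, placement by structure, a read minimum and removal of a GC and length trend. Leaving out members with copies or overlapping exons, and the whole-pair step, were added after seeing the data.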

Additional observations from a re-analysis of the deposited data

How the results depend on the processing

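Over 13 alternative settings the median log2 fold of the members stayed between -0.08 and -0.07. The difference of medians, large minus small, stayed between -0.07 with means and -0.01 among members without a near-identical copy. The ratio of summed levels stayed between 0.932 and 0.940 over 11 settings. The counts of members past the rule depended on it. With a pseudocount of 5 RPKM 1 member was higher instead of 3, since the added value pulls lower genes towards 1. With the 1.5-fold and 2-fold rules the counts were 0 in both directions. With an interval that excludes 1 as the rule, 8 members were lower instead of 4. Among the 52 members without an overlapping exon, a setting added after seeing the data, 2 were lower, since Mrpl36 and Mrpl33 drop out. No direction reversed under these settings. No paired analysis was possible because there was a single library in each group, and for the same reason no library could be left out. With a median of 204 control reads per member, counting error limits single members, and the difference between cultures is unknown.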

Other observations

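Members often lay head to head with another gene. In the GRCm38 annotation 23 of the 78 members (29.5%) had a gene on the opposite strand whose start lay within 1000 nucleotides of theirs and ran the other way, against 12.7% of 11013 protein-coding genes above the floor. Of these neighbours 22 were above the floor, of which 11 were lower in the Set1a siRNA library and 11 higher, at a median log2 fold of -0.01. Of the 22 members beside them 15 were lower. In 12 pairs the member and its neighbour differed in opposite directions. Beside Mrpl2, Klc4, a kinesin light chain, was at 8.25 RPKM in the Set1a siRNA library and 9.32 RPKM in the control siRNA library. Beside Mrpl30, Mitd1 was at 10.5 and 9.90 RPKM, and beside Mrpl44, Wdfy1 at 11.9 and 10.9 RPKM, the Set1a siRNA library first, and none of these 3 neighbours differed by 25% or more. A single neighbour was lower by that rule, Sars2, the mitochondrial seryl-tRNA synthetase, at 7.91 RPKM in the Set1a siRNA library and 10.2 RPKM in the control siRNA library. It shares its start region with Mrps12, which was at 30.3 RPKM in the Set1a siRNA library and 25.3 RPKM in the control siRNA library. A single neighbour was higher by that rule, Eme2 beside Mrps34, at 1.95 RPKM in the Set1a siRNA library and 1.19 RPKM in the control siRNA library. These neighbours were chosen after their values were seen.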
